A study of Mus musculus with 24 samples.

Results

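The enzymes of methionine and cysteine metabolism were followed in mouse liver at 3 times after a tumor cell injection. The set comprised the 8 listed genes Mat1a, Gnmt, Ahcy, Bhmt, Cbs, Cth, Cdo1 and Csad. They were found by gene symbol in the platform annotation of a printed array of 10080 oligonucleotide probes, which names a single gene for 9066 of them. Of the 8, 7 had a probe, 1 each, and none was annotated for Cbs. One group was livers of 8-week-old male C57Bl/6 mice that had received 1000000 LL/2(LLC1) cells, the Lewis lung carcinoma line, under the skin in 300 microlitres of phosphate-buffered saline (PBS). The other was livers of age-matched males of that strain given the same volume of PBS alone, and both were collected at 18, 72 or 192 h. Each time had 4 pairs of a tumor sample and a PBS sample, 12 pairs in all, hybridised together on 2 arrays with the Cy3 and Cy5 dyes exchanged, 24 arrays in total. The labels do not say whether a sample was 1 animal or a pool, so the spread between pairs may be partly technical.

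Methionine is converted in the liver to S-adenosylmethionine, the methyl donor of most methylation reactions, and the homocysteine that remains is either turned back into methionine or passed on to cysteine. Hepatocytes carry most of this traffic in the body: Mat1a makes S-adenosylmethionine, Gnmt uses up its excess, Ahcy releases homocysteine, Bhmt remethylates it with betaine from choline, and Cbs and Cth carry the sulfur to cysteine. Cysteine then feeds glutathione or is oxidised by Cdo1 and decarboxylated by Csad on the way to taurine, which conjugates bile acids.

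No member passed the test at any time, and single pairs lay far apart. The test was limma's linear model with moderated variances, fitted to every probe with enough pairs, with p-values adjusted over all of them by Benjamini-Hochberg and a threshold of 0.05. At 18 h the ratios of Mat1a, Cth and Csad were below 0 in every pair measured. Those of Gnmt were above 0 in every pair measured, and Ahcy, Bhmt and Cdo1 had pairs on both sides. Of all probes tested, 57.2% had an 18 h estimate below 0, and the share below 0 in every pair was not counted. At 72 h the pairs were split, and at 192 h the first pair held the lowest values of Mat1a, Ahcy, Bhmt and Cdo1, between -1.38 and -0.999, while the same genes in the other 3 pairs lay between -0.42 and 0.45. All values are log ratios of tumor over PBS as the authors deposited them, read as log2 and averaged over the dye-swapped arrays of a pair, so that a negative value is lower with the tumor. The log base is not stated, and the SD of an array's deposited ratios was 0.30 to 0.65 of that of its ratios recomputed from the scans, so the deposited ratios span a narrower range. This direction is the likely one, taken from the order of the series title and from the scanner channels. The files do not state it, and every sign would turn if it were the other way.

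RefSeq's table of promoters (build GRCm38.p6, 300 bases around the start of each gene) held 5 of the 8 members. Those of Bhmt and Ahcy are shown because both genes lay at or below -0.999 in the first pair at 192 h. That of Gnmt is shown because its spread over pairs was the smallest of the members. This spread rests on 5 pairs of a mostly saturated spot, with no deposited pair value at 192 h. The 3 promoters lie on the minus strand at chr13:93637709-93638008 (Bhmt), chr2:155074448-155074747 (Ahcy) and chr17:46729116-46729415 (Gnmt). Each is written 5′ to 3′ along the gene, and capitals mark matches, on either strand, to any of 5 motifs searched. These were the TATA box TATAAA, the GC box GGGCGG, the CCAAT box, the C/EBP motif TTGCNNAA and TGTTCT, a part of the glucocorticoid receptor site.
Bhmt: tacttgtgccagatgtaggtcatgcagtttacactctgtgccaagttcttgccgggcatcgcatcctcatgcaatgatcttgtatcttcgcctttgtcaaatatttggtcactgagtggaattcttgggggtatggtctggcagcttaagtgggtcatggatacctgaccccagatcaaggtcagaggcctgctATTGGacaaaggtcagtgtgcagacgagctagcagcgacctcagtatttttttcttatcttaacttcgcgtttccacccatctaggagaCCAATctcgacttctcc
Ahcy: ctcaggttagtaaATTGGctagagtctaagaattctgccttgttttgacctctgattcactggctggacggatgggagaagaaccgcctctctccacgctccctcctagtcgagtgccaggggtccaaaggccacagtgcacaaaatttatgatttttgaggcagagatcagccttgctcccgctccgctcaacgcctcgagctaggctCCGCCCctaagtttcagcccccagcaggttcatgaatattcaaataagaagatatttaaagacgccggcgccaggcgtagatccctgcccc
Gnmt: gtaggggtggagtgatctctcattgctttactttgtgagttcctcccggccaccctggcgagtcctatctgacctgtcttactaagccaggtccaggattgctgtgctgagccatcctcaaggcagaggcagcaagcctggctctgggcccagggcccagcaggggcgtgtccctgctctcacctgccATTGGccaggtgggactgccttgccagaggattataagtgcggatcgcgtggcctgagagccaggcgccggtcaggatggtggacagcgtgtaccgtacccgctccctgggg
Bhmt held the CCAAT box at 2 positions and Gnmt at 1, and Ahcy held the CCAAT box and the GC box at 1 position each. Of all 32851 promoters of this length in the table, 37.4% held the CCAAT box and 35.7% the GC box, so these matches are common letters in such windows. None of the 3 held the TATA box (13.6% of all promoters), the C/EBP motif (10.8%) or TGTTCT, the part of the glucocorticoid receptor site searched (19%).

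Values that rest on few arrays need their origin stated first. The deposited ratios lack 19 array values of members that the scans measured: 8 for Gnmt, 7 for Bhmt, 2 for Cdo1, and 1 each for Mat1a and Csad. In all 19 the spot was saturated in every scan that measured it. Another 8 values of such spots are present and enter the pair ratios: 3 of Gnmt, 2 each of Mat1a and Bhmt, and 1 of Cdo1. In the brightest of the 3 scans per array, the Bhmt spot was saturated on 91.7% of arrays and the Gnmt spot on 87.5%, against 13.0% for Cth and 15% for Csad. A saturated spot gives only a bound on the ratio, so Bhmt and Gnmt are the members most limited by the scanner. Ratios recomputed from the scans are given as a second source. They leave saturated scans out, except for a spot that was saturated in every scan. The deposited and recomputed ratios of an array correlated with r between 0.51 and 0.84.

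Mat1a, which makes S-adenosylmethionine in adult hepatocytes, had pair ratios of -0.56, -0.056, -0.46 and -0.87 at 18 h. They were -0.064, -0.14 and 0.84 at 72 h in the 3 pairs with a value (pairs 1, 3 and 4), and -1.32, 0.45, -0.19 and 0.34 at 192 h. All 4 pairs were below 0 at 18 h, whereas the later times had pairs on both sides. The limma estimate was -0.49 ± 0.25 (SE, n = 4) at 18 h (adjusted p = 0.762), and it was 0.21 ± 0.29 (n = 3) at 72 h (adjusted p = 0.995). At 192 h it was -0.18 ± 0.25 (n = 4, adjusted p = 0.997), and without the first pair the estimate turned to 0.20. The scans gave -0.67, -0.17, -0.58 and -1.20 at 18 h, and 0.021, -1.31, -0.0024 and 0.61 at 72 h. Their mean at 72 h was -0.17 ± 0.81 (SD, n = 4), so the sign at 72 h differed between the sources, which share all pairs but the second.

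Gnmt, the glycine methyltransferase that consumes surplus S-adenosylmethionine, had ratios of 0.062, 0.047 and 0.0057 at 18 h (pairs 1, 3 and 4). At 72 h it had -0.21 and 0.15 (pairs 2 and 4), and no pair had both dye orientations at 192 h. At 18 h its mean was the nearest to 0 of any member, from a spot that was mostly saturated. The dye-swapped arrays had the same sign in only 2 of its 5 pair values. From the scans Gnmt averaged 0.13 ± 0.18 at 18 h, 0.13 ± 0.30 at 72 h and -0.23 ± 0.35 at 192 h (SD, n = 4 each), and no adjusted p was below 0.886. Centring the scans on their median without loess put its 18 h mean at -0.26.

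Ahcy, which splits S-adenosylhomocysteine into homocysteine and adenosine, had ratios of -0.28, 0.20, -0.35 and -0.64 at 18 h. At 72 h they were -0.16, -0.50 and 0.11 (pairs 1, 2 and 4), and at 192 h -0.999, -0.11, -0.056 and -0.12. Of its 11 pair values, 9 were below 0, the largest count among the members, which had 5 to 11 pair values each. Csad had 6 of 7 below 0. In the scans the counts were 8 of 11 for Ahcy, 9 of 12 for Cdo1 and 7 of 8 for Csad. The mean of Ahcy over the 3 times was -0.26 ± 0.099 (SE, 11 pairs) by limma, with an unadjusted p of 0.0231 and an adjusted p of 0.504. The share of all 1362 probes tested with an unadjusted p under 0.05 in that comparison was 9.40%. At 192 h the estimate was -0.32 ± 0.16 (n = 4, adjusted p = 0.997), and without the first pair it was -0.095. At 18 h it was -0.27 ± 0.16 (n = 4, adjusted p = 0.781), and -0.15 without the fourth pair.

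Bhmt, the betaine-dependent methyltransferase that is very abundant in liver, had ratios of 0.80, -0.085 and -0.082 at 18 h (pairs 2, 3 and 4) and -0.011 at 72 h (pair 4). It had -1.38 and 0.017 at 192 h (pairs 1 and 2). One high value at 18 h and 1 low value at 192 h made up nearly all of its spread, and the 6 pairs with both orientations were too few for the test of the deposited ratios. In the scans, where all 12 pairs had a value, Bhmt was at -1.05, 0.85, -0.14 and -0.26 at 18 h, and between -0.37 and 0.094 at 72 h. At 192 h the scans gave -1.31, 0.28, 0.27 and -0.93, with an estimate of -0.42 ± 0.27 (SE, n = 4, adjusted p = 0.999). The first pair at 18 h and the fourth at 192 h, both low in the scans, have no deposited value. The second pair at 18 h was the highest and the first at 192 h the lowest in both sources.

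For Cbs, which condenses homocysteine with serine, there is no value here, since no probe carried its symbol or Entrez identifier. Cth, the cystathionine gamma-lyase that completes the path to cysteine, had ratios of -0.24, -0.59 and -0.24 at 18 h (pairs 1, 3 and 4). At 72 h it had -0.25, -0.47, 0.10 and 0.40, and at 192 h -0.38, 0.26, -0.086 and -0.24. At 18 h the 3 pairs lay together below 0, and at 72 h the first 2 pairs lay below 0 and the other 2 above it. The 18 h estimate was -0.36 ± 0.15 (SE, n = 3) by limma, with an unadjusted p of 0.0381 and an adjusted p of 0.626, in a comparison where 7.12% of all probes tested had an unadjusted p under 0.05. The scans gave a larger mean of -0.66 ± 0.38 (SD, n = 3) at 18 h, with an adjusted p of 0.663. Cth was the member least touched by saturation, and its dye-swapped arrays had the same sign in all 11 of its pair values.

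Cdo1, the dioxygenase that oxidises cysteine to its sulfinate, had ratios of 0.41, -0.33 and -0.84 at 18 h (pairs 2, 3 and 4). They were -0.60, -0.055 and 0.49 at 72 h (pairs 1, 2 and 4), and -1.38, 0.29, -0.42 and -0.14 at 192 h. Every time thus had values on both sides of 0. The estimates were -0.25 ± 0.30 at 18 h (SE, n = 3, adjusted p = 0.857), -0.053 ± 0.30 at 72 h (n = 3, adjusted p = 0.995) and -0.41 ± 0.26 at 192 h (n = 4, adjusted p = 0.997) by limma. Without the first pair the 192 h estimate was -0.093, and without the fourth pair the 18 h estimate turned to 0.043. In the scans the 192 h mean was -0.57 ± 0.72 (SD, n = 4), again with the first pair lowest at -1.51.

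Csad, the decarboxylase that makes hypotaurine, had ratios of -0.85, -0.12, -0.42 and -0.23 at 18 h. At 72 h it had -0.15 and 0.075 (pairs 1 and 4), and at 192 h a single pair had a value, -0.16 (pair 1). All 4 pairs were below 0 at 18 h, with a mean of -0.40 ± 0.32 (SD, n = 4), and without the first pair the mean was -0.26. The scans gave -1.14, -0.21, -0.68 and -0.46 at 18 h, with a mean of -0.62 ± 0.40 (SD, n = 4). At 72 h they gave -0.26, -1.42 and 0.040 (pairs 1, 2 and 4), with a mean of -0.55 ± 0.77 (SD, n = 3), against -0.040 in the deposited ratios that lack the second pair. The gene had too few pairs at the later times for the main test. An array-level fit that accepts either dye orientation gave Csad at 18 h -0.40 ± 0.15 (SE, 4 pairs), with an adjusted p of 0.571 over 4890 probes. It gave -0.060 ± 0.17 at 72 h and 0.074 ± 0.18 at 192 h, the latter opposite in sign to the single pair. At 192 h the arrays without a dye swap were at -0.32, -0.34 and 1.45 (pairs 2, 3 and 4), the last at 2.52 in the scans. That fit has the pair as a random block with a correlation of 0.20 and draws its degrees of freedom from arrays, of which there are more than pairs.

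**Figure D1:**
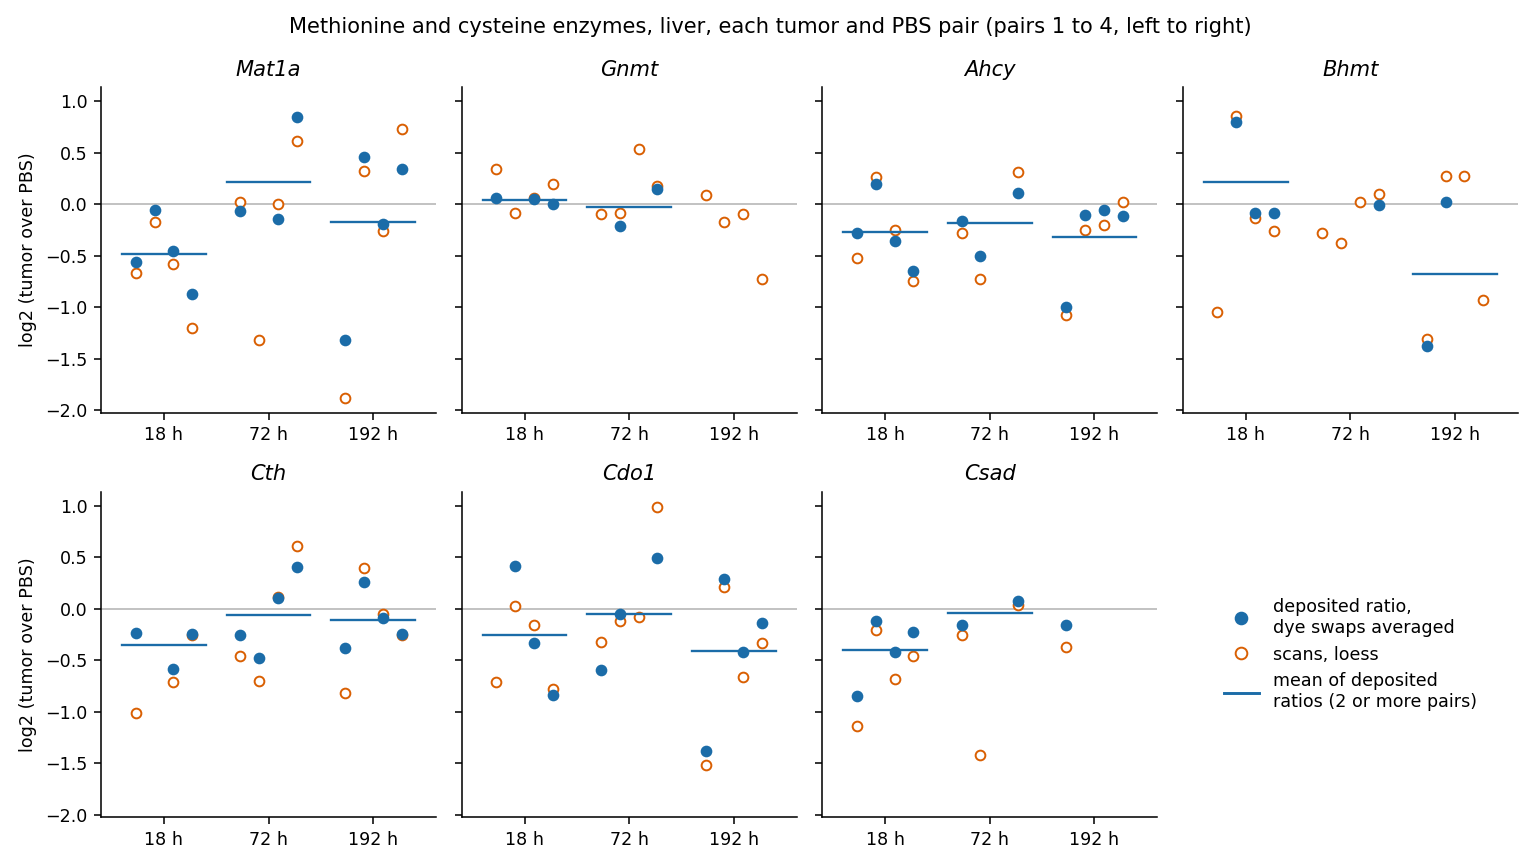
Log2 ratio of tumor over PBS (vertical axis) for each of the 7 members with a probe, in pairs 1 to 4 from left to right at 18, 72 and 192 h. Filled points are deposited ratios with dye swaps averaged, open points are recomputed from the scans, and bars are means of deposited ratios where 2 or more pairs had a value. Mat1a and Csad are below 0 in all 4 pairs at 18 h, and the first pair at 192 h is the lowest for Mat1a, Ahcy, Bhmt and Cdo1.

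Over all probes the tests made no call. Of the 1362 probes with at least 3 pairs at each time, 0 (0%) had an adjusted p of 0.05 or below at 18, 72 or 192 h, over all times, or between times, by limma with Benjamini-Hochberg adjustment. The counts at an unadjusted p under 0.05 were 97 at 18 h (7.12%), 71 at 72 h (5.21%), 50 at 192 h (3.67%) and 128 over all times (9.40%). The 4 members tested (Mat1a, Ahcy, Cth and Cdo1) passed in 0 comparisons, and those with an unadjusted p under 0.05 were Cth at 18 h and Ahcy over all times. Their estimates were below 0 for 4 of 4 at 18 h, 3 of 4 at 72 h and 4 of 4 at 192 h, beside 57.2%, 58.1% and 54.7% of all probes tested. The median over all members with a value was -0.27 at 18 h, -0.040 at 72 h and -0.25 at 192 h, beside medians of -0.012, -0.015 and -0.0079 over all probes tested. Since pairs are shared among members, these counts describe the same few livers repeatedly.

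The scans, which brought Bhmt and Gnmt into the test, also gave 0 calls among 2062 probes (0%), and the fit on arrays of either orientation, with all 7 members, gave 0 among 4890 (0%). An unadjusted p under 0.05 was reached in the scans by 6.60% of probes at 18 h, 5.04% at 72 h, 3.06% at 192 h and 9.75% over all times. In the fit on either orientation those shares were 7.53%, 5.54%, 3.97% and 9.45%. The members below that level in the scans were Cth at 18 h and Cdo1 at 192 h, and Cth and Ahcy over all times. In the fit on either orientation, 4 of 7 members were below it at 18 h (Mat1a, Cth, Csad and Ahcy) and 0 at 72 h. At 192 h 2 were (Bhmt and Ahcy), and over all times 2 (Cth and Ahcy). That fit was chosen after seeing the data and counts arrays, and its smallest adjusted p for a member was 0.389 by limma. The scans' estimate for Cdo1 at 192 h was -0.57 ± 0.24 (SE, n = 4), with an adjusted p of 0.999.

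**Figure D2:**
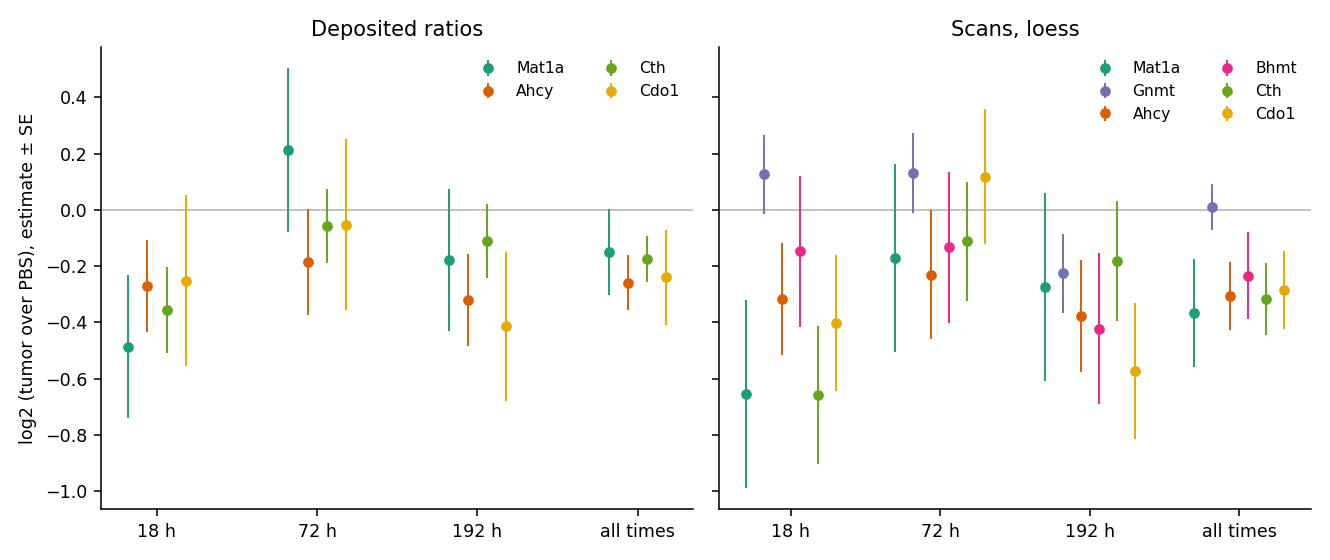
Estimates from limma with their standard errors (vertical axis, log2 of tumor over PBS) at 18, 72 and 192 h and over all times, for the 4 members tested in the deposited ratios (left) and the 6 tested in the scans (right). Points are estimates and bars are 1 SE on each side. Most estimates lie below 0, those of Mat1a at 72 h on the left and of Gnmt at each time but 192 h and Cdo1 at 72 h on the right lie above it, and no member has an adjusted p of 0.05 or below.

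No member's difference between times passed the test. As 72 h minus 18 h, the ratio of Mat1a differed by 0.70 ± 0.39 (SE), that of Cth by 0.30 ± 0.20, that of Cdo1 by 0.20 ± 0.43 and that of Ahcy by 0.085 ± 0.25. For 192 h minus 18 h the differences were 0.31 ± 0.36 for Mat1a, 0.24 ± 0.20 for Cth, -0.050 ± 0.23 for Ahcy and -0.16 ± 0.40 for Cdo1. Both contrasts use the same 18 h pairs. All 8 adjusted p-values were 1.00 after rounding by limma, and 0 of 1362 probes passed in either contrast, with 23 and 56 at an unadjusted p under 0.05.

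The spread over pairs was large for most members beside that of the other probes, as a description with no test. The SD over pairs was 0.61 for Mat1a (11 pairs), 0.59 for Cdo1 (10 pairs), 0.35 for Ahcy (11 pairs) and 0.30 for Cth (11 pairs), against a median of 0.13 over the probes tested. These SDs exceeded those of 99.9%, 99.9%, 96.8% and 94.6% of the probes tested, which were not matched to the members for brightness. Slopes of the scans on the deposited ratios were 1.29 to 2.03 over all spots. Over bright unsaturated spots on 14 arrays they were 0.97 to 1.28, so the deposited scale was not the same for bright spots. The part of brightness in these percentages was not tested. Bhmt had an SD of 0.70 over 6 pairs, Csad 0.30 over 7 and Gnmt 0.13 over 5. The dye swaps of a pair share both RNA samples. Their arrays deviated from the value of the pair by a root mean square of 0.29 for Mat1a, 0.26 for Cdo1, 0.18 for Ahcy, 0.070 for Cth, 0.17 for Csad and 0.053 for Bhmt, in each case less than the SD over pairs. For Gnmt it was 0.14, no less than its SD over pairs, and the median over the probes tested was 0.12.

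Both arrays of a pair had the same sign in 49 of 61 member values (80.3%), beside 51.7% of 14071 values of all probes tested, most of which lie close to 0. In the first pair at 192 h, Cdo1 was at -1.42 and -1.34 with the tumor RNA in Cy5 and in Cy3, Bhmt at -1.43 and -1.33, Ahcy at -0.93 and -1.07, and Mat1a at -1.15 and -1.48. The low values of that pair therefore stood on both of its arrays. Elsewhere the arrays could disagree: Cdo1 in the second pair at 72 h was at -0.54 with the tumor RNA in Cy5 and 0.43 with it in Cy3. Mat1a in the fourth pair at 72 h was at 1.39 with the tumor RNA in Cy5 and 0.30 with it in Cy3. Over its pairs Mat1a was on average 0.24 above the pair value with the tumor RNA in Cy5, a dye bias that the averaging removes only where both arrays have a value.

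**Figure D3:**
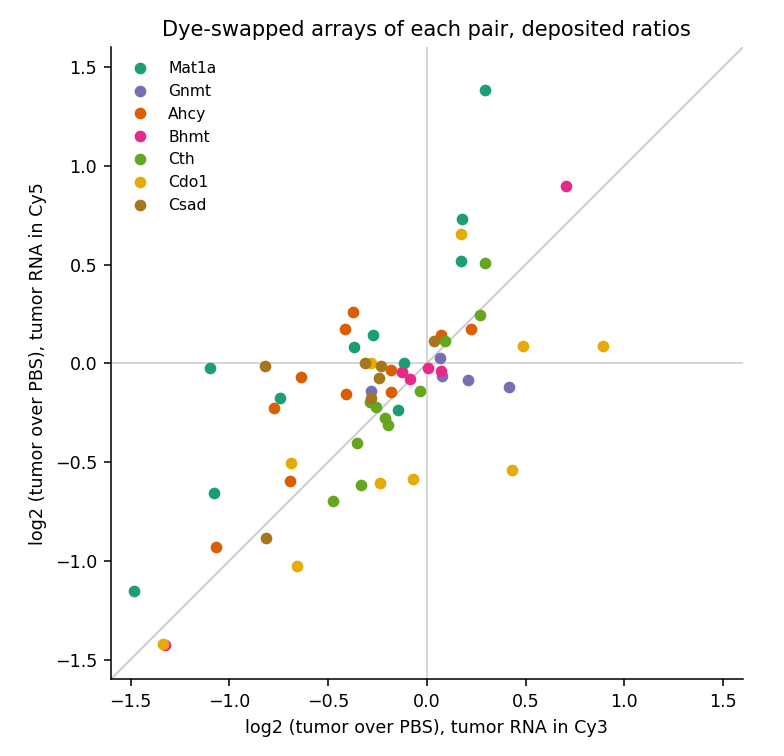
Each point is 1 member in 1 pair, with its deposited log2 ratio of tumor over PBS on the array with tumor RNA in Cy3 (horizontal axis) and in Cy5 (vertical axis). The diagonal is equality, and 49 of the 61 points have the same sign on both arrays. The lowest points, near -1.4 on both axes, are Cdo1 and Bhmt in the first pair at 192 h.

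The members' median was read within each pair. It was -0.28, 0.20, -0.35 and -0.24 in the 4 pairs at 18 h. It was -0.16, -0.34, -0.021 and 0.15 at 72 h and -1.16, 0.26, -0.14 and -0.13 at 192 h. In the first pair at 192 h all 6 members with a value were below 0, beside 55.5% of the 876 tested probes with a value there. That pair was also the most widely spread over all probes. Its SD over the tested probes was 0.30, beside 0.11 to 0.22 in the other pairs. In the fourth pair at 72 h 1 of 7 members was below 0, beside 65.8% of 1329 tested probes. The members' median was below 0 in 9 of 12 pairs. So was the median of all probes tested, which lay between -0.034 and 0.0060. The scans after loess and after median centring also had 9 of 12 members' medians below 0, but the pairs above 0 differed, and the fourth pair at 72 h was the only one above 0 in all 3. The size depended on scaling: in the first pair at 18 h it was -0.28 in the deposited ratios, -0.71 in the scans after loess and -1.70 in the scans after median centring.

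Markers of other cells were set beside these pair values. Kupffer cell and macrophage markers, 7 of 12 listed genes with a probe, had a median of 0.46 over 3 probes in the first pair at 192 h. In the other 11 pairs their median lay between -0.11 and 0.16. The scans measured 6 such probes in that pair, 2 of them below 0, with a median of 0.32, and gave -0.21 to 0.24 in the other 11 pairs. The deposited median was above 0 in 7 of the 9 pairs whose member median was below 0, against 6 of 9 in the scans. It was below 0 in 2 of the 3 pairs whose member median was above 0, as in the scans. At 18 h it was above 0 in every pair, at 0.010 to 0.16, also in the pair whose member median was above 0. Such counts were made for this list alone and carry no test. The 1 neutrophil probe with a value in the first pair at 192 h was at 0.68 (0.93 in the scans). The 1 stellate probe with a value there was at -0.18 and the 1 cholangiocyte probe at -0.057, and 2 endothelial probes had a median of 0.025. For the stellate, cholangiocyte and endothelial lists the scans gave -0.24, -0.22 and -0.027. No lymphocyte probe had a value in that pair. Genes of proteins that hepatocytes secrete had medians from -0.10 to 0.13 over the 12 pairs, with 0.013 in the first pair at 192 h. The scans gave -0.23 to 0.17, and the lowest value, over 17 probes, was that of the first pair at 192 h. The 3 hepatocyte markers with a probe had a median there of 0.13 in the deposited ratios (2 probes) and -0.52 in the scans (3 probes, 2 below 0). In these whole-tissue samples fewer hepatocytes and less RNA per hepatocyte cannot be told apart, and the part of other cells in the members' values was not tested.

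**Figure D4:**
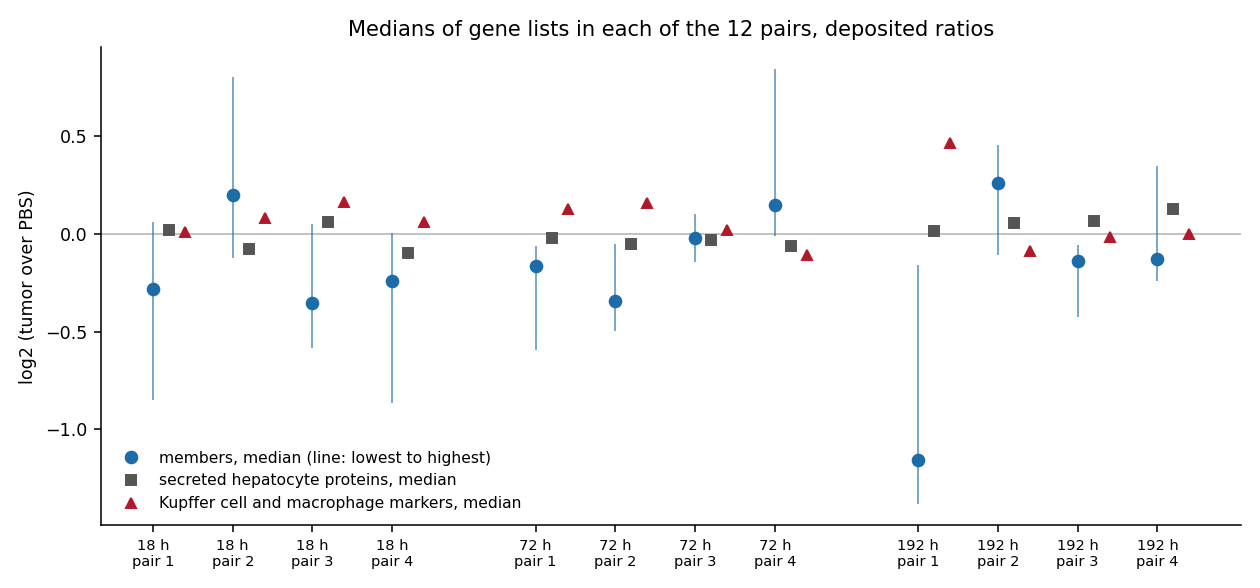
Median log2 ratio of tumor over PBS (vertical axis) in each of the 12 pairs for the members (circles, with a line from the lowest to the highest member), secreted hepatocyte proteins (squares) and Kupffer cell and macrophage markers (triangles). The members' median lies at -1.16 in the first pair at 192 h, where the Kupffer cell and macrophage median is 0.46 and the secreted protein median is 0.013.

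The wider pathway, 77 further genes, had 43 with a probe and 11 in the test, and 0 of the 11 passed at any time. Its median was 0.040 at 18 h, 0.023 at 72 h and 0.018 at 192 h, and 3, 4 and 4 of the 11 had ratios below 0. None of the 8 other genes of the methionine cycle and homocysteine remethylation could be tested. Of the glutathione genes, 4 were tested, among them Gclm, the modifier subunit of glutamate-cysteine ligase, which takes up cysteine. Gclm was at -0.36 ± 0.089 (SE) at 18 h, below 0 in 3 of 3 pairs, with an unadjusted p of 0.00275 and an adjusted p of 0.626. At 72 h Gclm was at -0.020 ± 0.089 and at 192 h at 0.12 ± 0.089, above 0 in 3 of 3 pairs.

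At 18 h the other pathway genes lay closer to 0 than Gclm. Sardh, the mitochondrial sarcosine dehydrogenase that returns the methyl group Gnmt spends, was at 0.12 ± 0.061 at 18 h (adjusted p = 0.762 by limma). Gamt, which uses S-adenosylmethionine to make creatine, was at 0.14 ± 0.10 at 18 h and 0.080 ± 0.10 at 72 h. Dmgdh, which works below Bhmt on dimethylglycine, was at -0.066 ± 0.11 at 72 h and -0.12 ± 0.094 at 192 h. Tst, the mitochondrial rhodanese that handles sulfide sulfur, was at -0.12 ± 0.074 at 192 h. Gsr, glutathione reductase, was at -0.084 ± 0.053 at 72 h, and Chac2, which breaks glutathione down, at 0.11 ± 0.083. Odc1, the ornithine decarboxylase of polyamine synthesis, was at -0.055 ± 0.087 at 18 h and 0.078 ± 0.087 at 192 h.

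Among the 245 non-member probes with a value in every pair, the 5 genes whose 12 ratios were most like the members' median by Pearson's r were Urah (0.89), Cyp4a10 (0.89), Hagh (0.82), Rida (0.81) and Jag1 (0.77). The median r over the 245 probes was 0.028, and 18.4% exceeded 0.5. All of these correlations share arrays and dyes with the members, and the first pair at 192 h is the lowest value of each of the 5 genes. There Cyp4a10, a fatty acid omega-hydroxylase, was at -1.26, Urah, of uric acid breakdown, at -0.80, Rida at -0.79, Hagh, a glyoxalase, at -0.64 and Jag1, a Notch ligand, at -0.28. In the other 11 pairs Cyp4a10 lay between -0.58 and 0.067.

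The quality of the series bears on all of these values. The arrays held between 977 and 8894 deposited values of the 10080 probes, which is why so few probes reached the test. Over the tested probes the dye-swapped arrays of a pair correlated with r between -0.31 and 0.61, the highest in the first pair at 192 h and the lowest in the third pair at 192 h. The hepatocyte list could check the tissue through only 3 of 16 markers (Fga, Hpx and Ahsg), and all 3 had values on all 24 arrays of the scans. No erythroid marker had a probe. Pairs 1 and 2 and pairs 3 and 4 carry separate ranges of running numbers in their titles, whose meaning the labels do not give. Within pairs 1 and 2 the members' median was -0.042 at 18 h, -0.27 at 72 h and -0.49 at 192 h, and within pairs 3 and 4 it was -0.41, 0.15 and -0.13.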

How the data were processed

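Liver RNA of 12 pairs of a tumor sample and a PBS sample was measured on 24 2-colour arrays, each scanned 3 times. The deposited value table holds 1 ratio per probe and array, with background correction, normalization and software not given in the sources used here. Against the scans, bright unsaturated spots had slopes between 0.97 and 1.28 on 14 arrays, where a natural log scale would give 1.44 and a log10 scale 3.32, so the deposited values were read as log2. Over all spots the slopes were 1.29 to 2.03, so the base rests on bright spots. There the 2 sources correlated with r between 0.76 and 0.90, and noise in the deposited ratios lowers such a slope. Log2 against natural log is therefore not settled. Another base would change the size of the deposited ratios but not their signs. The column medians lay between -0.033 and 0.0095, and whether this is centring is not stated. Direction was taken as tumor over PBS, which requires the first scanner channel to be Cy3, as in the labels' channel order. The scans, per the file headers, hold intensity per channel and background, and a saturation factor given by the scanner software as a fraction below 1 for saturated spots.

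Swapped arrays were turned to 1 direction and averaged per pair, and both orientations were required. Probes with at least 3 of 4 pairs at each time (1362) entered limma (version 3.58.1 in R 4.3.3, lmFit and eBayes, two-sided). There was 1 coefficient per time over all 12 pairs, and p-values were adjusted by Benjamini-Hochberg with a threshold of 0.05. The sources say nothing of separate animals, so p-values measure the spread between samples. The number of arrays limits the precision. Scans were used as net signal with loess (span 0.3), normexp with an offset of 50, or median centring. Other alternatives left out pairs, added blocks or a dye term, or dropped the filter. Named genes were all members, the pathway genes with the 2 smallest unadjusted p-values in each direction at each time and over all times, and the 5 probes most like the members' median. The members and lists were chosen with earlier results of these data known, and the list of secreted hepatocyte proteins was added after the annotation was read. Pairs of different times share a replicate number only: deviations of same-numbered pairs correlated between -0.32 and 0.49 (median 0.053), and of different numbers between -0.55 and 0.51 (median 0.024). Promoter sequences are RefSeq's (GRCm38.p6), and no coordinates are given for the probes.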

Additional observations from a re-analysis of the deposited data

Results flagged for a closer look

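Ahcy at 192 h had 1 pair far from the other 3: the first pair was at -0.999, and its gap to the nearest other pair was 0.93 of the range of the 4 pairs. Of the 11 groups of 4 pairs examined in this way, this was the 1 that stood out. Chance alone gives about 1 in 20 for each single group, not for all 11 together, and the groups share pairs and so are not independent. Both dye orientations of that pair were low, at -0.93 with the tumor RNA in Cy5 and -1.07 with it in Cy3, and the scans gave -1.08. Over all probes tested that pair had the widest spread of any, with an SD of 0.30. In the same pair the Kupffer cell and macrophage median was 0.46 (0.32 in the scans), and the 1 neutrophil probe was at 0.68. The 1 stellate probe was at -0.18, the 1 cholangiocyte probe at -0.057 and the endothelial median at 0.025. The part of other cells in the value of Ahcy was not tested.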

How the results depend on the processing

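No member was called under any alternative that tested it, which for Csad, Gnmt and Bhmt were at most 2, 4 and 5 settings, none of them a block, a split or a left-out pair. The counts of calls over all probes stayed at 0 in most. Without the filter on pairs, 4766 probes were tested and the calls were 1 at 72 h (Ltbr), 2 at 192 h (Gpsm2 and Nr5a2), 3 over all times (Ltbr, Gpsm2 and Nr5a2) and 2 for 192 h minus 18 h (Gpsm2 and Nr5a2). These names were chosen after their values were seen. The replicate block gave 1 call over all times (Cers2, against 0 without the block), as did the title number block (1, Cers2), and neither changed a member's call. Without 1 pair the calls over all times were 0 to 1 (Pbld1, without the fourth pair at 72 h), and 0 in the other comparisons. The replicate numbers share only a number, and whether they mark pairing is not stated.

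Median centring of the scans put the members' median at -0.83 at 18 h and -0.25 at 72 h, where the median of all probes tested was -0.12 and -0.27. Pairs 1 and 2 alone put the 72 h median at -0.27. Leaving out a pair gave medians of -0.43 to -0.15 at 18 h, -0.21 to 0.0098 at 72 h, -0.39 to -0.024 at 192 h and -0.29 to -0.13 over all times, the last 2 highest without the first pair at 192 h.

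Signs turned mainly at 72 h. Mat1a at 72 h was -0.17 in the scans after loess, -0.22 after normexp, -0.24 after median centring, -0.064 in pairs 1 and 2, -0.044 with a dye term and -0.025 in either orientation, a fit chosen after seeing the data. The scans and both fits with a dye term include the second pair, which has no deposited pair value. It was at -1.31 in the scans after loess and -1.02 on its 1 deposited array. Leaving out a pair gave Mat1a at 72 h -0.10 (without the fourth) to 0.39. Mat1a at 192 h was 0.077 in pairs 3 and 4, and -0.39 to 0.20 without 1 pair. Cth at 72 h was 0.25 in pairs 3 and 4, and -0.21 to 0.083 without 1 pair. Cdo1 at 18 h was 0.41 in pairs 1 and 2, and -0.58 to 0.043 without 1 pair. Cdo1 at 72 h was 0.12 in the scans after loess, 0.078 after normexp and 0.49 in pairs 3 and 4, and -0.33 to 0.22 without 1 pair. Ahcy at 72 h was 0.11 in pairs 3 and 4. The cause was not tested.

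Apart from settings that left out 1 pair, the 4 members tested gave 204 values, of which 13 turned sign as above. The 3 members without a main test gave 126 values, of which 14 turned sign and 25 moved by at least 1 SD or had no SD. Among them Bhmt at 18 h turned to -0.15, -0.20 and -0.40 in the scans after loess, normexp and median centring. Csad at 18 h moved to -1.01 after normexp, and Csad at 192 h turned to 0.074 in the fit on either orientation. Spot saturation limits Bhmt and Gnmt most.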
